A study of Rattus norvegicus with 10 samples.

Results

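The genes described here are 9 interferon-response genes of rat liver: Stat2, Irf1, Irf7, Isg15, Mx1, Mx2, Ifit2, Ifit3 and Oas1a. They were chosen by name, and every probe set that the platform annotation pairs with one of these symbols was taken. This gave 12 probe sets of 31042 that are no controls, for 9 of 14217 named genes, and all 12 passed the filter on dim probe sets that left 18625 to be tested. The dimmer of 2 Mx2 probe sets passed it only through its signal on the first fish oil array. Livers came from male Wistar rats, an outbred laboratory strain, killed after an overnight fast at the end of 12 weeks on one of 5 diets. The control group ate standard chow, whose fat content is not given, and the other 4 groups ate a high-fat diet in which fat gave 42% of the energy. The fat was lard in one group, olive oil in another, coconut fat in the third and fish oil in the last, which the design text of the series calls cod liver oil. There were 2 arrays for each diet, 10 in all, each from 1 liver sample, and the title of the series asks whether the type of fat matters. The ages of the rats are not given.

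Interferons are cytokines that warn tissue of viral infection. Type I interferons act through the kinases Jak1 and Tyk2 and a complex that holds Stat2 and Irf9, which binds the interferon-stimulated response element (ISRE) in promoters of target genes, whereas the gamma-activated site (GAS) serves the response to interferon-gamma. The products of the target genes hinder viral replication in many ways, and hepatocytes, Kupffer cells (the macrophages of the liver) and sinusoidal endothelial cells all respond to interferon.

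The deposited values are MAS5 signals, the linear intensity that the Affymetrix algorithm gives a probe set. The 2% trimmed mean was 100 on every array, and the median signal lay between 28.7 and 31.9 except on the second lard array (36.8). The number of arrays limits the precision. The labels do not say whether RNA of several rats was pooled, so each p rests on the spread from sample to sample, part of which may be technical. Across tested probe sets, r was 0.934 to 0.949 between the arrays of a diet and 0.922 to 0.949 between those of 2 diets. The 8 hepatocyte markers on the array had signals of 4932.1 or more on every array. In whole liver, fewer cells of a type and less RNA per cell cannot be told apart. Below, signals are mean ± SD (n = 2), and fold changes were taken from log2(signal + 3.1), a scale on which the change of dim genes is understated, and carry a standard error (SE). A signal of 12.8, the highest of the bacterial trp controls, served as the background bound.

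RefSeq promoter windows (build GRCr8, 250 bases before to 50 after the start of the gene) were given for 6 of the 9 genes, Stat2, Irf1, Irf7, Mx1, Ifit3 and Oas1a. The letters of the ISRE core, GAAANNGAAA or TTTCNNTTTC on the other strand, stood in 3 of the 6, and in 3.92% of all 33469 promoters of the table. The GAS letters TTCNNNGAA, which read the same on both strands, stood in 2 of the 6 and in 8.87% of all promoters. All 4 windows with a match are printed, so that the letters can be read beside the values of their genes. Capitals mark the matched letters, each window reads 5′ to 3′ along the gene, and a match is a description of letters and not of binding.
Irf1, chr10:38417685-38417984, plus strand, GAS in capitals: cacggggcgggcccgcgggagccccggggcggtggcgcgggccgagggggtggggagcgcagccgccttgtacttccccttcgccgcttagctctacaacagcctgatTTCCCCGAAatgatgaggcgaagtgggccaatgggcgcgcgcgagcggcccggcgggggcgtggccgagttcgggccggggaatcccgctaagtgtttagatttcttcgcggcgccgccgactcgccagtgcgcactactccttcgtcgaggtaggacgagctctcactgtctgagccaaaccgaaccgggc
Irf7, chr1:205799974-205800273, minus strand, ISRE in capitals: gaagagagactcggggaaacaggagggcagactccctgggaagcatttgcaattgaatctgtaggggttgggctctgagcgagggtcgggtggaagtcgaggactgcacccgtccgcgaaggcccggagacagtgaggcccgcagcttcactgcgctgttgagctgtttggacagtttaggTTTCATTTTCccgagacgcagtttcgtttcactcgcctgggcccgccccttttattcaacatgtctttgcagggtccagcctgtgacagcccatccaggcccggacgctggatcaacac
Ifit3, chr1:241527076-241527375, plus strand, ISRE in capitals: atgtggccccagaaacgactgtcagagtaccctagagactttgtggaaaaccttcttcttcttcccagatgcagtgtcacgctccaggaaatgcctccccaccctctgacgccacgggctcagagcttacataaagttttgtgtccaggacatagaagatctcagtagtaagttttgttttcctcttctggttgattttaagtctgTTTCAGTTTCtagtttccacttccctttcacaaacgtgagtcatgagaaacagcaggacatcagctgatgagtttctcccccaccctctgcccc
Oas1a, chr12:41330216-41330515, plus strand, GAS and then ISRE in capitals: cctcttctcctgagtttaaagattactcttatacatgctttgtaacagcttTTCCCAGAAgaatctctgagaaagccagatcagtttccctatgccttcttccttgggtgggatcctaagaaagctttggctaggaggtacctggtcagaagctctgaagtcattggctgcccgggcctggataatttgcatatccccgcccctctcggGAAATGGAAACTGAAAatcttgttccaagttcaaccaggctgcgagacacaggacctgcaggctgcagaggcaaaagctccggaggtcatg
The ISRE letters began 69 bases before the start of the gene in Irf7, 44 in Ifit3 and 41 in Oas1a. In Oas1a, 2 overlapping copies formed the run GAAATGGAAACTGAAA, and a GAS match lay 199 bases before the start. The GAS letters of Irf1 began 142 bases before its start. The windows of Stat2 and Mx1 held neither set of letters.

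Across the 5 diets, limma gave an adjusted p under 0.05 for 0 of the 12 probe sets in any of the 8 comparisons or in the F-test for any difference. The share of all tested probe sets that passed was small too: 0.156% for fish oil against chow, 0.0161% for lard, 0.0268% for olive oil and 0% for coconut fat, 0.0376% for the mean of the 4 high-fat diets against chow, 0.424% for fish oil against the other 3 high-fat diets, 0% for coconut fat against lard and olive oil, 0% for olive oil against lard and 0.14% in the F-test. At an unadjusted p under 0.05, the comparisons with chow gave 2 member probe sets for fish oil (7.63% of all probe sets), 2 for lard (7.99%), 2 for olive oil (8.38%), 1 for coconut fat (5.43%) and 2 for the mean of the high-fat diets (6.66%). In the same terms there were 3 for fish oil against the other 3 (11.8%), 0 for coconut fat against lard and olive oil (6.71%), 0 for olive oil against lard (6.23%) and 1 in the F-test (9.4%). These probe sets belonged to Ifit2, Stat2 and Mx2. The Mx2 probe set among them was the dimmer one, which passed the dim filter only through the first fish oil array. With 2 arrays a diet, a p that misses the threshold does not show that the diets gave equal levels.

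**Figure D1:**
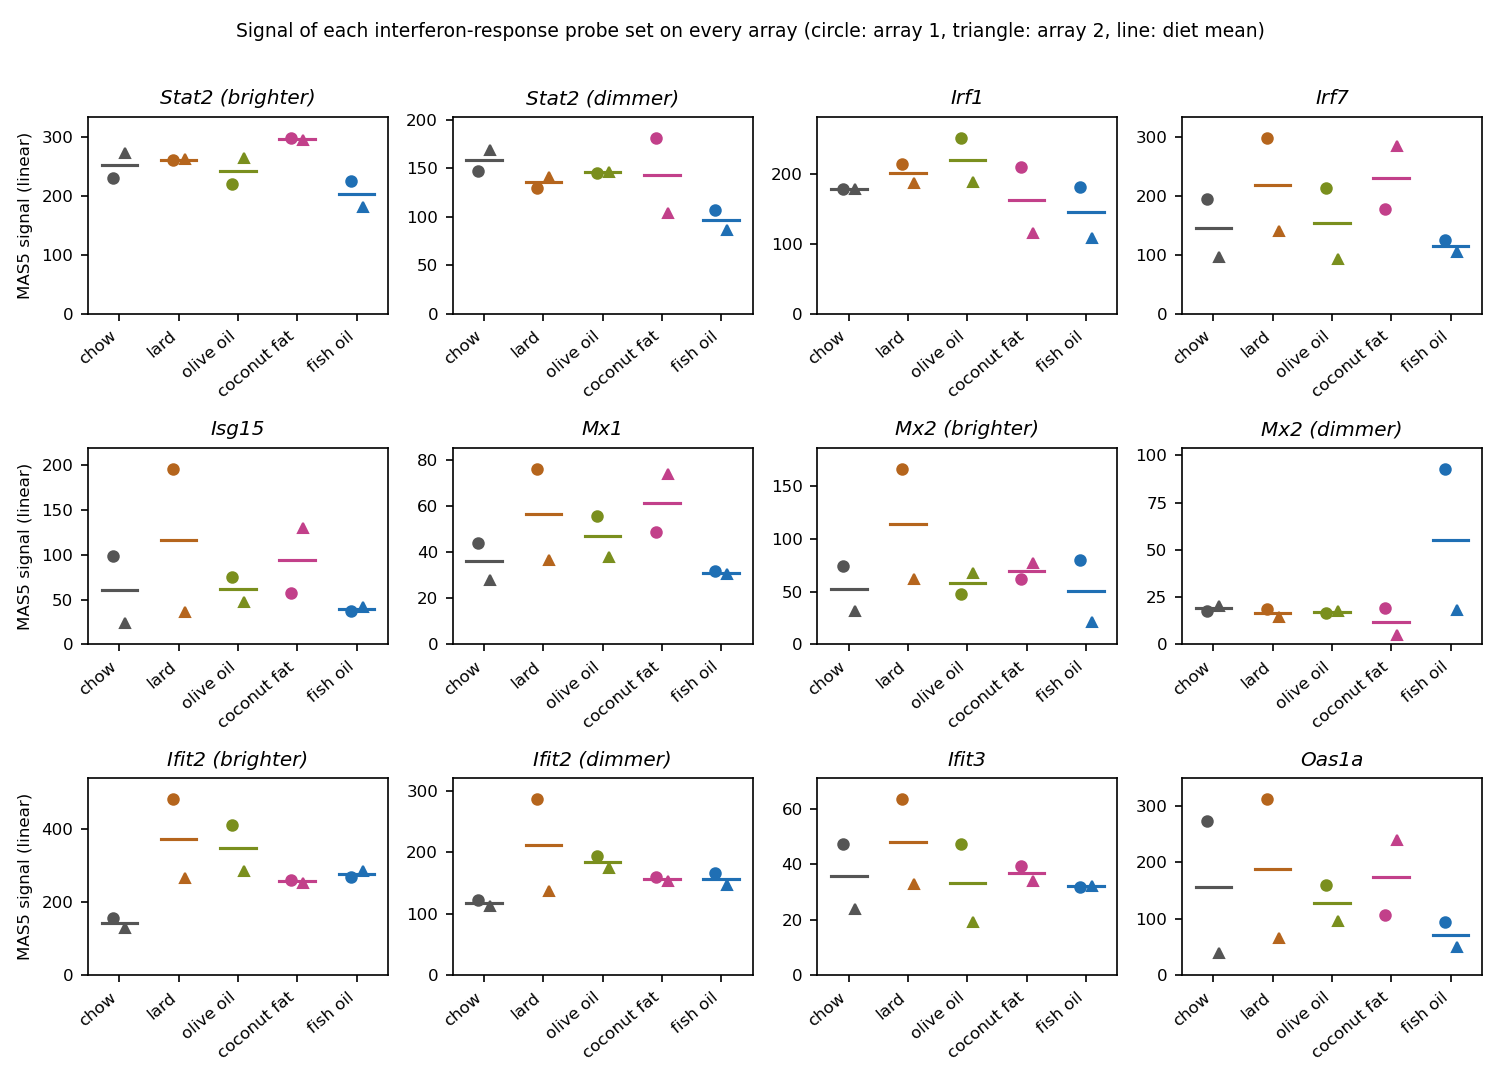
MAS5 signal (linear axis from 0) of the 12 interferon-response probe sets by diet, with 1 point per array and a line at the mean of the 2 arrays. Ifit2 is lowest on the 2 chow arrays on both of its probe sets, and Isg15, Irf7, Mx1 and Oas1a differ more between the 2 lard arrays than between most diets.

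Ifit2, whose product binds viral RNA and hinders its translation, had the smallest p of the 9 genes in each of the 5 comparisons with chow. The brighter of its 2 probe sets had signals of 156.5 and 130.2 on the chow arrays, 480.9 and 265.8 with lard, 411.5 and 284 with olive oil, 259.8 and 253.4 with coconut fat and 267.6 and 285.7 with fish oil. All 8 high-fat arrays thus lay above both chow arrays. The diet means ran from lard (373.4 ± 152) through olive oil (347.8 ± 90.2), fish oil (276.6 ± 12.8) and coconut fat (256.6 ± 4.53) to chow (143.3 ± 18.6), and of neighbours in this order the arrays of lard and olive oil and of olive oil and fish oil overlapped. How often neighbouring diets separate over all tested probe sets was not counted. Such overlaps and separations of neighbours, here and for the genes below, are therefore descriptions only. Against chow, the log2 fold change was 1.31 with lard, 1.24 with olive oil, 0.94 with fish oil and 0.83 with coconut fat (SE 0.27 each, limma adjusted p = 0.353, 0.173, 0.345 and 0.785). The mean of the high-fat diets was 2.11-fold above chow (log2 fold change 1.08, SE 0.21, 95% interval 0.62 to 1.54, limma unadjusted p = 0.00032, adjusted p = 0.171). This was rank 34 of 18625 by p in that comparison.

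The dimmer Ifit2 probe set had the same order of chow and high-fat arrays, with signals of 121.4 and 112.7 on chow and between 136.8 and 285.7 on the high-fat arrays. Its log2 fold change for the mean of the high-fat diets was 0.55 (SE 0.22, 95% interval 0.06 to 1.04, limma unadjusted p = 0.032, adjusted p = 0.681). Both Ifit2 probe sets were therefore higher on all 8 high-fat arrays than on both chow arrays, which held for 2 of the 12 member probe sets and for 2.55% of all tested probe sets. The 4 high-fat diets share the chow arrays as their control, so their fold changes are not independent of each other. Ifit3, the neighbour of Ifit2 in the genome and a partner of the other Ifit proteins, did not show this order. Its probe set had signals of 47.3 and 24 with chow, 63.4 and 32.9 with lard, 47.4 and 19.3 with olive oil, 39.5 and 34.1 with coconut fat and 31.9 and 32.1 with fish oil. The means ran from lard over coconut fat, chow and olive oil to fish oil, and the arrays of all neighbours in this order overlapped. For the mean of the high-fat diets against chow the log2 fold change of Ifit3 was 0.08 (SE 0.38, 95% interval -0.76 to 0.91, limma adjusted p = 0.989). Over the 12 probe sets the median in that comparison was 0.21, with 8 values above 0, against 0 over all tested probe sets. It moved to -0.11 without the second and to 0.64 without the first chow array.

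**Figure D2:**
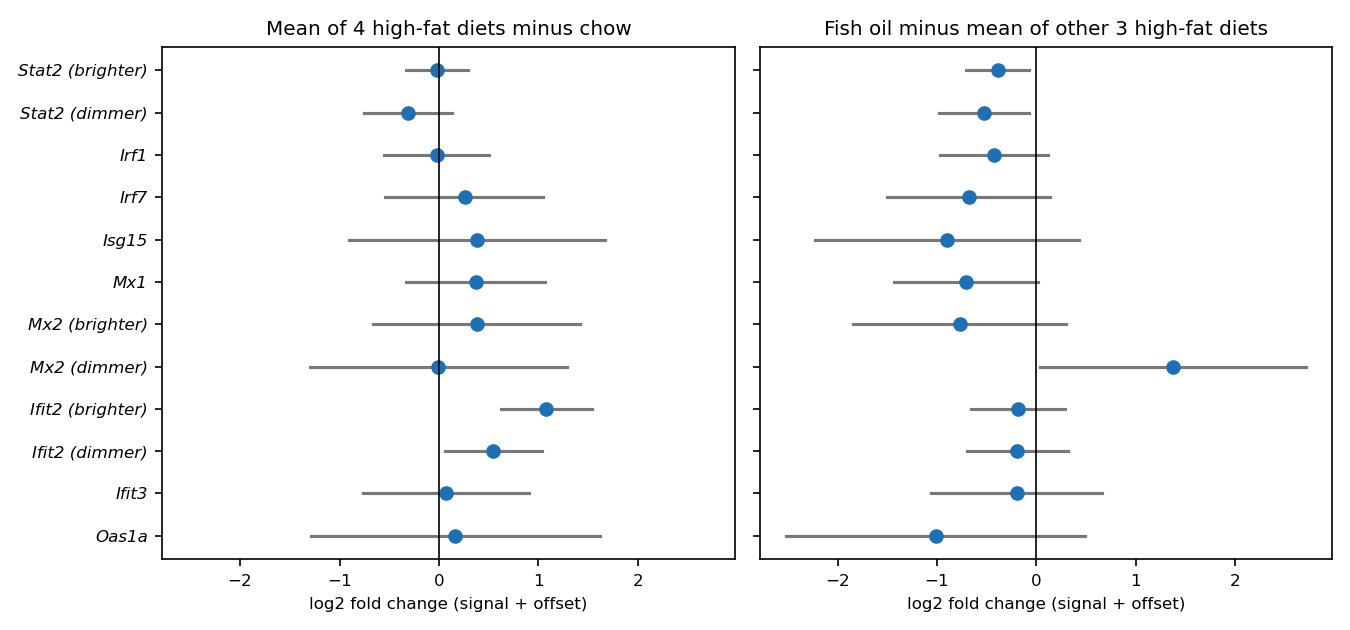
Log2 fold change of each member probe set with its 95% interval from limma, for the 4 high-fat diets together against chow (left) and for fish oil against the other 3 together (right). On the left both Ifit2 intervals lie above 0, and on the right 11 of 12 values lie below 0, as do 52.6% of all tested probe sets. Neither set of intervals is adjusted for the number of probe sets tested.

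Fish oil gave the lowest diet mean for 9 of the 12 probe sets, chow for both of Ifit2 and coconut fat for the dimmer one of Mx2. The 9 include both probe sets of Stat2, and the share of all tested probe sets lowest with fish oil was not counted. The place of fish oil below chow depended on the first chow array. Over the 12 probe sets, the median log2 fold change against chow was -0.23 on all arrays. It was 0.38 without the first chow array and -0.49 without the second. Against the mean of lard, olive oil and coconut fat, 11 of 12 member values were below 0 (median log2 fold change -0.47). Of all tested probe sets 52.6% were below 0, with a median of -0.02. Members that vary together are not independent of each other, so these counts are descriptions. The median lay between -0.72 and -0.23 when each array was left out in turn. Leaving out the first fish oil array gave -0.72, with 11 of 11 tested values below 0, and leaving out the second gave -0.23, with 10 of 12. Without the first, the dimmer Mx2 probe set was too dim to be tested.

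Stat2, the transcription factor that joins Irf9 in the complex of type I interferon signalling, had the smallest unadjusted p in this comparison. The brighter probe set read 225.7 and 181.3 with fish oil, 230.5 and 273.6 with chow, 261.5 and 262.1 with lard, 220 and 264.2 with olive oil and 298.3 and 295.1 with coconut fat. Only the second fish oil array lay outside the range of the other diets. The log2 fold change was -0.39 (SE 0.15, 95% interval -0.71 to -0.07, limma unadjusted p = 0.0223, adjusted p = 0.32). The dimmer Stat2 probe set read 106.8 and 86.2 with fish oil, and 104.1 to 181.3 on the other 8 arrays, with a log2 fold change of -0.53 (SE 0.21, limma unadjusted p = 0.0269, adjusted p = 0.345). By diet mean, the brighter probe set ran from coconut fat over lard, chow and olive oil to fish oil, and of the neighbours coconut fat and lard had arrays that did not overlap. On the dimmer one chow was highest, followed by olive oil, coconut fat, lard and fish oil, and the neighbours chow and olive oil, and lard and fish oil, did not overlap. The share of all probe sets with such separations was not counted.

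Irf1, a transcription factor that interferon-gamma induces, read 178.3 and 178.7 with chow, 214.2 and 187.3 with lard, 251 and 188.1 with olive oil, 209.9 and 115.1 with coconut fat and 181.3 and 108.6 with fish oil. The second arrays of coconut fat and fish oil were the 2 lowest. The order of means was olive oil, lard, chow, coconut fat and fish oil, and of these neighbours the arrays of lard and chow did not overlap. Fish oil against the other 3 gave a log2 fold change of -0.42 (SE 0.25, 95% interval -0.97 to 0.12, limma adjusted p = 0.551).

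Mx1 and Mx2 are GTPases related to dynamin that trap components of viruses. Mx1 read 31.6 and 30.7 with fish oil, 44.1 and 27.8 with chow, 76.1 and 36.6 with lard, 55.8 and 38 with olive oil and 48.7 and 73.7 with coconut fat. It was the 1 member probe set with both fish oil arrays below all 6 arrays of the other high-fat diets, an order found in 6.8% of all tested probe sets. One chow array was lower still, and the arrays of all neighbours in the order coconut fat, lard, olive oil, chow and fish oil overlapped. The log2 fold change against the other high-fat diets was -0.71 (SE 0.33, 95% interval -1.43 to 0.02, limma adjusted p = 0.436).

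The 2 Mx2 probe sets disagreed. The brighter one was highest on the first lard array, with 166 and 61.6 on lard, 74.1 and 31.5 on chow, 47.8 and 67.4 on olive oil, 62.3 and 76.7 on coconut fat and 80.1 and 21.3 on fish oil. By mean the order was lard, coconut fat, olive oil, chow and fish oil, and all neighbours overlapped. The dimmer one read 93 on the first fish oil array and between 4.9 and 20.3 on the other 9, with the second coconut fat array under the background bound. Over the 10 arrays the 2 probe sets correlated at r = 0.06. Their log2 fold changes for fish oil against the other 3 had opposite signs, -0.77 (SE 0.49) on the brighter and 1.37 (SE 0.61) on the dimmer one, and neither passed (limma adjusted p = 0.584 and 0.41). The dimmer one passed the dim filter only through the first fish oil array and was left out as too dim without it. Its value and p for fish oil are thus not independent of the filter. RefSeq lists Mx3 as another name of Mx2, and which transcripts each probe set reads was not tested.

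The remaining 3 members, Irf7, Isg15 and Oas1a, showed large differences between the 2 arrays of several diets. With fish oil the arrays differed little for Irf7 (1.2-fold) and Isg15 (1.14-fold). Irf7, the factor that amplifies production of type I interferon, read 195.8 and 97.2 with chow, 298.8 and 140 with lard, 213.4 and 93.8 with olive oil, 177.8 and 284.6 with coconut fat and 126.1 and 105.5 with fish oil. Isg15, a ubiquitin-like protein that is attached to other proteins, read 98.3 and 23.5 with chow, 195.7 and 36.4 with lard, 75.5 and 47.4 with olive oil, 57.3 and 129.7 with coconut fat and 37 and 42.1 with fish oil. Oas1a, which makes the oligoadenylates that activate RNase L, read 272.4 and 39.6 with chow, 311.1 and 65.5 with lard, 159.4 and 95.9 with olive oil, 105.9 and 240 with coconut fat and 93.7 and 50 with fish oil. In all 3 genes the first array was the higher one with chow, lard and olive oil and the lower one with coconut fat. RefSeq lists 8 Oas1 genes in rat, 2 of which have a probe set of their own symbol, so the Oas1a signal may include close copies.

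The higher of the 2 arrays of a diet exceeded the lower 6.88-fold for Oas1a and 4.18-fold for Isg15 with chow, and 4.75-fold and 5.38-fold with lard. By diet mean, Irf7 ran from coconut fat (231.2 ± 75.5) over lard, olive oil and chow to fish oil (115.8 ± 14.6), Isg15 from lard (116 ± 113) over coconut fat, olive oil and chow to fish oil (39.55 ± 3.61), and Oas1a from lard (188.3 ± 174) over coconut fat, chow and olive oil to fish oil (71.85 ± 30.9). Of all these neighbours only olive oil and fish oil, for Oas1a, had arrays that did not overlap. Fish oil against the other 3 high-fat diets gave log2 fold changes of -0.68 (SE 0.37) for Irf7, -0.9 (SE 0.6) for Isg15 and -1.01 (SE 0.68) for Oas1a, with limma adjusted p = 0.519, 0.613 and 0.614. The 95% interval of Oas1a ran from -2.52 to 0.49 and that of Isg15 from -2.23 to 0.43, so these arrays leave both wide falls and small rises within the intervals.

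**Figure D3:**
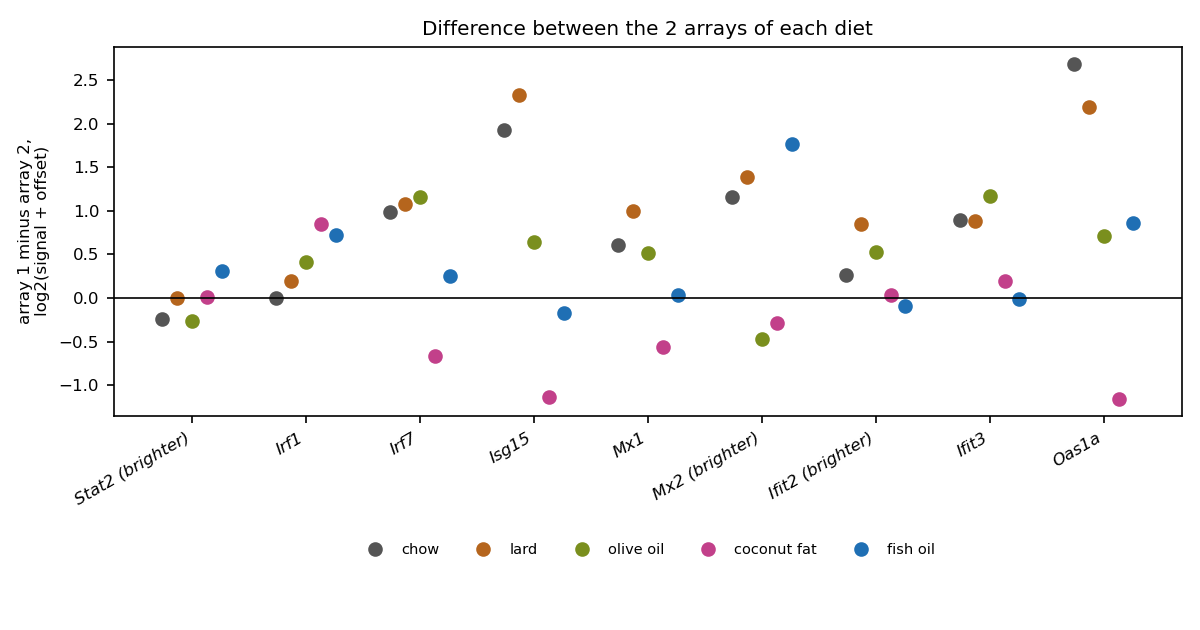
Difference between the first and the second array of each diet, in log2(signal + 3.1), for the 9 genes by their brighter or only probe set, with 1 point per diet. Oas1a with chow (2.69) and Isg15 with lard (2.33) lie farthest from 0, while the brighter Stat2 probe set stays within 0.31 of 0.

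The within-diet SD, the pooled SD between the 2 arrays of a diet on the log2 scale, was 1.21 for Oas1a, 1.04 for Isg15, 0.82 for the brighter Mx2 probe set and 0.63 for Irf7. The median over all tested probe sets was 0.29, and 10 of the 12 member probe sets lay above it. Oas1a stood at the 99.4th percentile of all tested probe sets and Isg15 at the 98.4th. Since dim probe sets scatter more, each member was also set against the 1000 tested probe sets nearest to it in mean level, where Oas1a, Isg15, the brighter Mx2 probe set and Irf7 stood at percentiles 99.7, 99.6, 99 and 98.3. Irf1 stood at 91.4 and both Ifit2 probe sets at 87.4. Ifit3 (75.3), the dimmer Mx2 probe set (74.2, with an SD of 0.84), the dimmer Stat2 probe set (70.7) and Mx1 (68) were closer to the middle of their neighbours. The brighter Stat2 probe set was the steadiest, with an SD of 0.15 (percentile 30.5 among its neighbours in level). Of the variance of Oas1a over the 10 arrays, 81% lay within diets, and of Isg15 75.3%, against 19.8% for the brighter Ifit2 probe set. The median share was 55.3% over the 12 member probe sets and 50.4% over all tested probe sets.

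**Figure D4:**
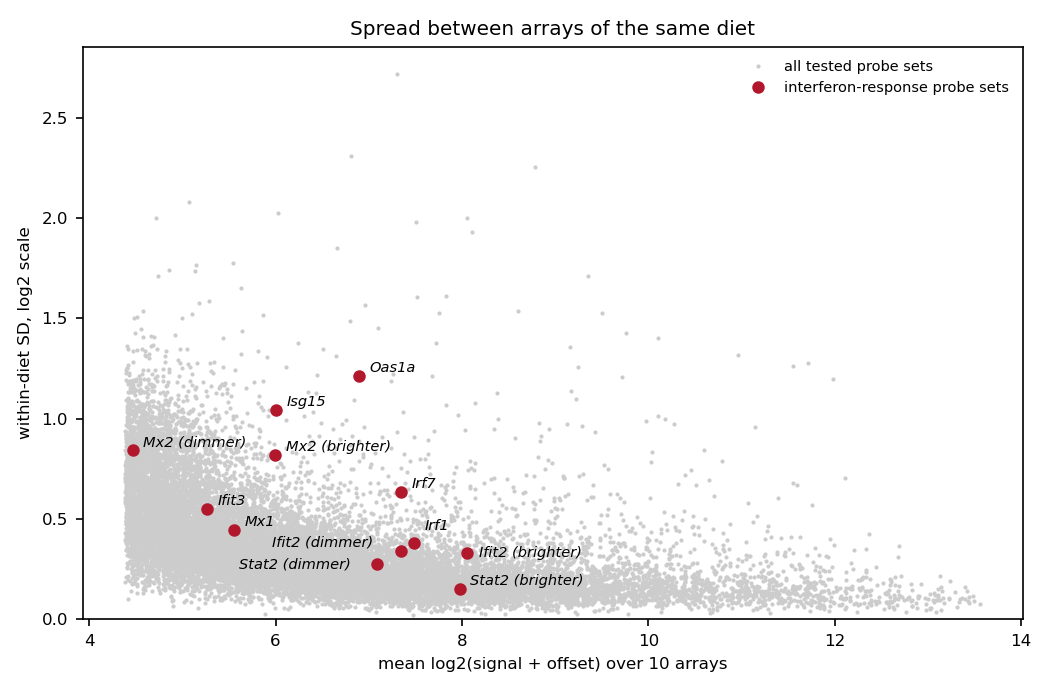
Within-diet SD against mean log2(signal + 3.1), with 1 grey point for each of the 18625 tested probe sets and the 12 interferon-response probe sets in red. Oas1a (1.21) and Isg15 (1.04) lie above nearly all probe sets of similar level, and Stat2 (0.15 on the brighter probe set) lies among the bulk.

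These differences ran in parallel across arrays for part of the members. Among Irf7, Isg15, Mx1, Ifit3 and Oas1a, a group of 5 named after the values were seen, the 10 pairs had Pearson's r from 0.67 to 0.94 over the 10 arrays (Spearman's rho from 0.76 to 0.95). Without the 2 arrays farthest from the median of one gene of the pair, r lay between 0.67 and 0.94, and for deviations from the diet mean between 0.75 and 0.97. Isg15 and Oas1a were the closest pair, with r = 0.94 and 0.93 without the 2 farthest arrays, together with Irf7 and Mx1 (0.94). The group was picked for these correlations. Over all 36 pairs of the 9 genes, by brighter or only probe sets, the median r was 0.46 and the lowest -0.16. The 2 Stat2 probe sets had r between -0.13 and 0.39 with the 5 genes, and between -0.26 and 0.39 without the 2 farthest arrays. Irf1 had r between 0.05 and 0.32 with them over all 10 arrays, but between 0.39 and 0.73 without the 2 farthest. The brighter Mx2 probe set had r between 0.5 and 0.77, and between 0.2 and 0.62 without the 2 farthest. The 2 Ifit2 probe sets correlated with each other at 0.91, and the brighter one with the 5 genes at 0.37 to 0.56, or at -0.39 to 0.47 without the 2 farthest arrays. Its deviations from the diet mean correlated with theirs at 0.71 to 0.9. All values come from the same 10 arrays and share their scaling, so these correlations are descriptions over n = 10.

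**Figure D5:**
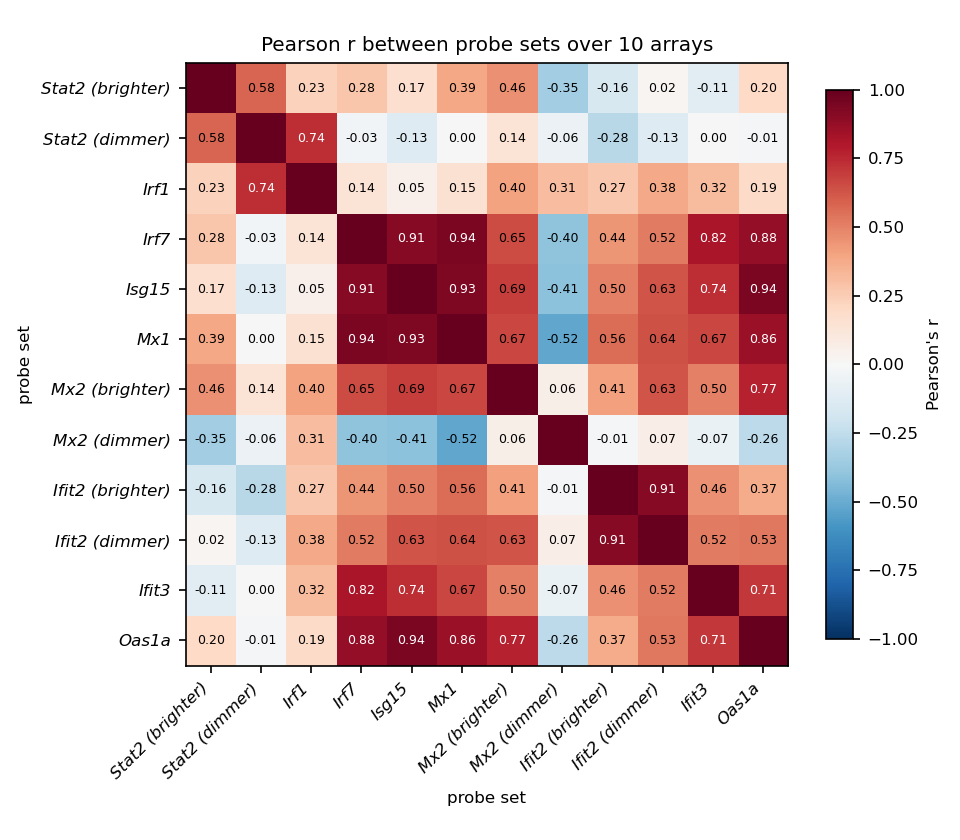
Pearson's r between the 12 member probe sets over the 10 arrays, in red for positive and blue for negative values. Irf7, Isg15, Mx1, Ifit3 and Oas1a form a block of values from 0.67 to 0.94, and the dimmer Mx2 probe set runs against it with values from -0.52 to -0.07.

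The mean z-score of the 9 genes, each by its brighter or only probe set, was 1.39 on the first and -0.22 on the second lard array, 0.48 and -0.33 with olive oil, 0.28 and 0.53 with coconut fat, -0.31 and -1.05 with fish oil and 0.21 and -0.97 with chow. All 9 genes were above their own mean on the first lard array and 1 of 9 on the second fish oil array. The 5 genes outside the members whose signal followed this score most closely, of 10461 compared, were Trim34 (r = 0.97), LOC100910973 (0.96), Ifi27 (0.93), Slfn4 (0.91) and Usp18 (0.9). Without the first lard and the second fish oil array, which lay farthest out, r was 0.95, 0.94, 0.95, 0.86 and 0.73. Trim34 is a tripartite motif protein, Ifi27 an interferon-induced mitochondrial protein, Slfn4 a member of the Schlafen family and Usp18 the protease that removes Isg15 from its targets. Usp18 read 155.2 and 39.9 with chow, 341 and 92.4 with lard, 91.9 and 88.9 with olive oil, 120.7 and 142.3 with coconut fat and 139.3 and 41.3 with fish oil. It thus shared with Isg15 the high first lard array and the low second chow array. On the first fish oil array the genes differed, with 139.3 for Usp18 and 37, near its lowest signals, for Isg15.

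The other genes of the pathway were taken from 6 lists of 117 names, of which 80 genes were tested, each by its brightest probe set. Of these, 29 (36.2%) correlated with the score of the 9 genes at r over 0.5, while 833 of the 10461 genes compared (7.96%) did so. In 7 of the 8 comparisons and in the F-test, limma gave an adjusted p under 0.05 for 0 of the 80, with 2 to 10 at an unadjusted p under 0.05 in each, while 5.43% to 9.4% of all tested probe sets had such a p. Fish oil against the other 3 high-fat diets was the exception, with 0 higher and 2 lower of 80, and 2 higher and 17 lower at an unadjusted p under 0.05. Over all tested probe sets 0.424% passed and 11.8% had an unadjusted p under 0.05. Of the 80 values 62 were below 0 there, with a median log2 fold change of -0.23, and of all tested probe sets 52.6% were below 0, with a median of -0.02.

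Both genes that passed belong to the list of 22 interferon-gamma-induced genes. Psmb8, a catalytic subunit of the immunoproteasome, read 235.6 and 225.5 with fish oil, 429.6 and 786.7 with chow, 865.2 and 505.5 with lard, 730.2 and 584.4 with olive oil and 624 and 463.6 with coconut fat. Both fish oil arrays lay below all the others, 2.65-fold below the other high-fat diets (-1.4 on the log2 scale, SE 0.25, limma adjusted p = 0.0426). Igtp, a GTPase that interferon-gamma induces in defence against intracellular parasites, read 209 and 157.3 with fish oil and between 283.2 and 483.3 on the other 8 arrays (-0.99 on the log2 scale, SE 0.17, limma adjusted p = 0.0364). The other Igtp probe set was at -0.85 and did not pass (limma adjusted p = 0.0649). These calls were lost in many settings. Psmb8 had an adjusted p of 0.0541 with the replicate block, and without 1 array in turn both genes lost their call in most fits, among them the fit that lacked the first fish oil array (0.156 for Psmb8, 0.0643 for Igtp) and the one that lacked the second (0.198 and 0.213).

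In the list of 32 other type I interferon-induced genes, 14 had r over 0.5 with the score, Ifi27 (0.93), Parp12 (0.82) and Sp110 (0.79) foremost, while Ifit1, a close relative of Ifit2 and Ifit3, had r = -0.32. Against chow, Rtp4 had a log2 fold change of -1.03 with fish oil (SE 0.43, limma adjusted p = 0.6) and Ifit1 of -1 in the mean of the high-fat diets (SE 0.5, limma adjusted p = 0.786). By diet, Ifit1 was at -1.67 with lard, -1.61 with olive oil, -0.76 with fish oil and 0.06 with coconut fat. Its first lard array read 5.6, under the background bound. Cmpk2 with fish oil (1.24, SE 1.04) and Samhd1 in the mean of the high-fat diets (0.94, SE 0.56) had values above 0 that did not pass either (limma adjusted p = 0.882 and 0.836). Among the interferon-gamma-induced genes, Gbp4 had -1.55 with fish oil against chow (SE 0.51, limma adjusted p = 0.451). Its mean signal was 8.7 with fish oil, under the background bound, and 30.25 with chow. Of its arrays 2 were at or below the bound, so the size of this fall was not well measured. In the same list, Tap1 and Icam1 had 0.77 and 0.64 in the mean of the high-fat diets (limma adjusted p = 0.634 and 0.642). Against chow by diet, Tap1 was at 1.01 with lard, 0.84 with olive oil, 1.14 with coconut fat and 0.08 with fish oil. Icam1 was at 0.7, 0.92, 0.74 and 0.19 in the same order.

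Of the ligands and receptors, 5 of 10 listed genes were tested, all of them receptor chains. Ifnb1 was at or below the background bound on 9 of 10 arrays and Ifng on 4, and both were too dim to be tested. Il10rb, a shared chain of the interferon-lambda receptor, had the largest value with fish oil against chow (log2 fold change 0.7, SE 0.24, limma adjusted p = 0.487), and Ifnar1, a chain of the type I receptor, was at -0.37 in the mean of the high-fat diets (SE 0.19, limma adjusted p = 0.806). Of 8 signalling genes, Irf8 (-0.7) and Irf3 (-0.36) had the largest values with fish oil, and Stat3 (0.39) and Irf9 (0.29) in the mean of the high-fat diets. Irf9, the partner of Stat2, correlated with the score at 0.79. Of 7 sensors of nucleic acids, Zbp1 had 0.64 and Dhx58 0.33 in the mean of the high-fat diets, and with fish oil Zbp1 had 0.36 and Tbk1 -0.22. Of 6 negative regulators, Usp18 had 0.49 and Trex1 -0.2 in the mean of the high-fat diets, and with fish oil Ptpn2 had -0.26 and Trex1 -0.08, and none of these passed in limma.

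Summed markers of macrophages were lowest on the 2 fish oil arrays, although no marker passed. The 10 markers of Kupffer cells and other macrophages on the array, of 12 listed, summed to 3206.9 and 3585.3 with fish oil and to between 3893.5 and 4999.7 on the other 8 arrays. All 10 were above background on some array, and their median log2 fold change for fish oil against the other high-fat diets was -0.34, with 0 passing limma's test and 4 lower at an unadjusted p under 0.05. Over all tested probe sets 0.424% passed and 11.8% had an unadjusted p under 0.05. The single values ran from -0.5 (Lyz2) to -0.02 (C1qb) and 0.02 (Adgre1). Bright genes such as Clec4f (mean signal 858.4) and Lyz2 (800) weigh more in the sum than Adgre1 (54.97). The 3 erythroid markers on the array summed to 4289.5 and 5790.4 with fish oil and to between 5499.4 and 10139.7 elsewhere, so that the ranges overlapped. The median log2 fold change of the tested markers for fish oil against the other high-fat diets was -0.61 for the 3 erythroid, -0.32 for 4 plasmacytoid dendritic, -0.25 for 7 T and NK, -0.49 for 2 B and plasma cell, -0.08 for 7 stellate, -0.05 for 8 hepatocyte and 0.19 for 5 sinusoidal endothelial markers, and the 1 neutrophil marker tested was at -0.64. The part of other cells in the lower interferon-response values was not tested. Over the 10 arrays the summed markers correlated with the score of the 9 genes at r = 0.38 for macrophages, 0.45 for erythroid cells, 0.38 for plasmacytoid dendritic cells, 0.26 for stellate cells, 0.15 for hepatocytes, 0.11 for B cells, 0.09 for neutrophils, -0.12 for T and NK cells and -0.48 for sinusoidal endothelium. The plasmacytoid dendritic sum was mostly Bst2 (mean signal 1281, against 79.33 for Tcf4, 88.85 for Irf8 and 28.17 for Il3ra). Bst2 is also in the list of type I interferon-induced genes, and Irf8 in that of signalling genes. The values of plasmacytoid dendritic cells thus do not rest on cell markers alone. Of 11 T and NK markers on the array 2 (Cd3d and Ncr1), of 4 B and plasma cell markers 1 (Cd79b) and of 4 neutrophil markers 1 (Cxcr2) were at or below the background bound on all 10 arrays. Others of the same lists, among them Cd3e, Cd4, Lck, Jchain and S100a9, were above it on every array.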

How the data were processed

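Per the labels' protocols, total RNA from frozen liver pieces gave biotinylated cRNA for 1 array per sample. The authors deposited linear intensity values, namely MAS5 signals per the submitters' processing notes (version not given in the sources used here), whose 2% trimmed mean was 100 on every array. No further scaling was applied. Of 31099 probe sets, 57 controls were removed, 3.1 (the 10th percentile of all signals) was added before the log2 step, and the 40% of lowest mean log2 value (12417) were left out. Symbols came from the platform annotation (20826 probe sets with 1, 436 with several, 9780 with none), and 0 changed when brought up to date by gene identifier.

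With limma 3.58.1 (R 4.3.3), the 10 arrays were fitted together, with 1 mean for each diet, an intensity trend, 5 residual degrees of freedom and a prior of 5.96, and Benjamini-Hochberg adjustment was made within each comparison over 18625 probe sets. The fit was also run on simulated data with known fold changes and independent normal noise, its spread estimated from these arrays. That simulation does not test the assumptions of the model or cover genes that vary together. Outside the 9 genes, those named passed in a comparison or had the 2 largest fold changes of their list with fish oil or in the mean of the high-fat diets against chow. The 5 most similar genes were named by r, and other names were chosen after their values were seen. The members, lists and comparisons were chosen with earlier results of these data known. Over all tested probe sets, arrays with the same replicate number did not deviate together (r between -0.03 and 0.08 over 10 pairs of diets). Among Irf7, Isg15, Mx1, Ifit3 and Oas1a, all 5 were higher on the first array with chow, lard and olive oil. With fish oil 3 of them were, and with coconut fat 1.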

Additional observations from a re-analysis of the deposited data

How the results depend on the processing

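No member probe set passed in limma under any of the 18 alternatives, giving 161 counts of 0: quantile normalization, a shared 75th percentile, an offset of 10, no dim filter or the lowest 60% left out, no intensity trend, only the diets compared, the replicate block, and each of 10 arrays left out. The replicate block changed the call of Psmb8 (adjusted p = 0.0541) and of no other member or gene named for passing. Ifit2 in the mean of the high-fat diets against chow stayed between 0.95 and 1.21 on the brighter probe set, with adjusted p from 0.0809 (without the second lard array) to 0.547 (no trend). Some log2 fold changes that had not passed changed sign, and the cause was not tested. For the high-fat diets against chow the 2 chow arrays set the sign: without the second and without the first, Stat2 was 0.1 and -0.14, Irf7 -0.24 and 0.75, Isg15 -0.58 and 1.35, Mx2 -0.2 and 0.96, Ifit3 -0.37 and 0.52, and Oas1a -1.18 and 1.51. The median of the 12 was -0.11 and 0.64. Without the first lard array, Ifit3 was -0.04 and Oas1a -0.11. Without the first olive oil array, Ifit3 was -0.07 and Stat2 0.02, and without the second fish oil array Stat2 was 0.02 and Irf1 0.07. Irf1 was 0 without the second lard, 0.03 without the second olive oil and 0.08 without the second coconut fat array, and at the lowest -0.13 without the first coconut fat array. Mx2 was -0.01 on its dimmer probe set. For fish oil against the other 3, its brighter probe set was at 0.12 without the second and at -1.65 without the first fish oil array, and its dimmer one was at 1.37 on all arrays. The calls of Psmb8 and Igtp were also lost without the trend (0.238 and 0.196), and that of Psmb8 at a shared 75th percentile (0.0533). The count of all probe sets called depended more on the setting: 79 for fish oil against the other 3 ranged from 6 (no trend) to 120 (only the diets compared), 29 for fish oil against chow from 5 to 41, 3 for lard from 0 to 8, 5 for olive oil from 0 to 21, 0 for coconut fat up to 5, 7 for the high-fat diets together from 0 to 12, 0 for coconut fat against lard and olive oil up to 1, 0 for olive oil against lard up to 4, and 26 in the F-test from 1 to 36.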
